A study of Nannochloropsis oceanica strain IMET1 with 6 samples.

Results

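The lists of chromatin interactions of cells deprived of nitrogen for 1 day (N1) or for 2 days (N2) were compared bin pair by bin pair in *Nannochloropsis oceanica* strain IMET1. All pairs of 1-kb bins listed at N1 or N2 were taken, keyed by the chromosome and position of each bin with the ends ordered, and were split into pairs listed at N1 only, at N2 only and at both time points. This gave 7119 bin pairs out of 10432 listed anywhere in the series. The cells had grown to the logarithmic phase in nitrogen-replete medium under continuous light. They were then washed and moved into nitrogen-free medium, where the N1 and N2 cells were kept under continuous illumination until sampling, and nitrogen-replete cells taken at the transfer (C0) served here only to say which pairs were listed before. Each group had 2 Hi-C libraries, labelled as replicates and called biological replicates in the paper's methods, whose culture section names more replicates than this. The authors pooled the 2 libraries before calling interactions, so each group has 1 list in cis and 1 in trans. Without replicate lists no test between N1 and N2 was possible, and the 95% intervals below (exact Poisson for counts, exact binomial for shares and for ratios of counts) cover counting error only. Bins are named by chromosome and first position in the coordinates of the IMET1 genome version used by the authors, and each runs for 1 kb. No nuclear gene annotation was used here, so no gene is named.

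Hi-C joins pieces of DNA that lie close together in the nucleus, and the number of read pairs that join the same bins, the contact count, follows how often these loci meet. Most contacts form between neighbours on the same chromosome, while loops, chromosome ends that meet and shared nuclear neighbourhoods bring distant bins together. *N. oceanica* is an oil-rich marine alga that slows its growth and stores carbon as triacylglycerol when nitrogen runs out, and the libraries sample its chromatin early and later in that response.

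The N1 lists were made from fewer read pairs than the N2 lists, and this difference was larger in trans than in cis. The N1 libraries held 5810707 and 7320838 valid read pairs and the N2 libraries 11074127 and 13426118, so that N2 had 1.87 times as many in all, 1.63 times as many in cis and 2.14 times as many in trans. Contacts expected of a pair of average bins were recovered from the deposited p-values, and they came to 10.3 at N1 and 14.3 at N2 for bins 2 kb apart, 2.93 and 4.65 at 10 kb, 1.42 and 2.37 at 20 kb, and 0.0137 and 0.0293 for bins on different chromosomes. The expected count was therefore higher at N2 by 1.38-fold at 2 kb, 1.67-fold at 20 kb, 1.87-fold at 97 kb and 2.14-fold in trans. An average pair 2 kb apart entered the N1 list from 33 contacts and the N2 list from 39, at 3.19 and 2.73 times its expected count. At 20 kb it needed 13 contacts at N1 and 15 at N2, or 9.13 and 6.32 times the expected count, and in trans 4 contacts in both groups, or 293 and 137 times. Weaker relative contacts could thus be listed at N2 than at N1 at every distance given.

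Most listed interactions were found at N2 only. In cis, 4590 bin pairs were listed at N2 only (95% interval 4458 to 4725), 496 at N1 only (453 to 542) and 452 at both (411 to 496). The pairs listed at both were 47.7% of the N1 list and 8.96% of the N2 list. In trans, 1483 pairs were listed at N2 only (1408 to 1560), 63 at N1 only (48.4 to 80.6) and 35 at both (24.4 to 48.7), which is 35.7% of the N1 list and 2.31% of the N2 list. With looser matching, 408 of the 496 N1-only cis pairs had no N2 pair within 1 bin at both ends and 202 had none within 5 bins, while 4372 and 3491 of the 4590 N2-only pairs had no such N1 pair. How many pairs 2 lists of the same chromatin at these depths would share was not measured.

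Cis-interactions listed at N2 only reached farther along the chromosome than those listed at N1 only or at both. The median distance was 5 kb at N2 only (quartiles 2 and 14 kb) against 2 kb at N1 only (2 and 3 kb) and 2 kb for pairs listed at both (2 and 2 kb). Up to 5 kb lay 52.0% of the N2-only pairs (50.5% to 53.4%), 85.3% of the N1-only pairs (81.9% to 88.3%) and 95.4% of those listed at both (93.0% to 97.1%). Over 10 kb lay 1444 pairs of N2 only, or 31.5% (30.1% to 32.8%), against 35 of N1 only, or 7.06% (4.96% to 9.68%), and 8 listed at both, or 1.77% (0.767% to 3.46%). Between 11 and 100 kb lay 1251 N2-only pairs, 17 N1-only pairs and 5 listed at both.

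**Figure D1:**
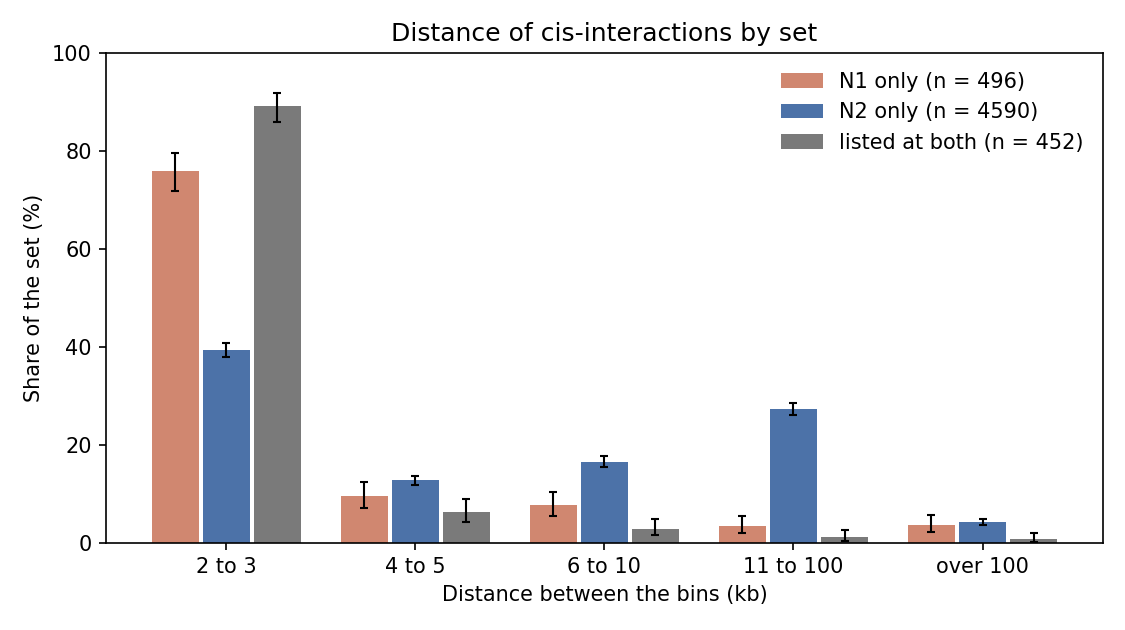
Share of each set of cis-interactions (percent, vertical axis) in 5 classes of distance between the bins (kb, horizontal axis), with exact binomial 95% intervals as error bars. The N2-only set holds 27.3% of its pairs at 11 to 100 kb, against 3.43% of the N1-only set and 1.11% of the pairs listed at both, while the shortest class holds 39.3%, 75.8% and 89.2%.

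At a given distance, the N2-only pairs had higher contact counts than the N1-only pairs but a lower enrichment, the contact count over the expected count. Pairs 2 to 3 kb apart had a median of 52 contacts in the N2-only set and 31 in the N1-only set, with a median enrichment of 3.12 and 4.09. Between 6 and 10 kb the medians were 35 and 19 contacts at 4.01 and 6.18 times the expected count, and between 11 and 100 kb 20 and 13 contacts at 6.41 and 10.4 times. Over all distances the N2-only pairs held a median of 37 contacts (range 4 to 226) and the N1-only pairs 29 (4 to 76). The higher enrichment in the N1-only set stood beside the higher ratio that a pair needed to be listed at N1, and the parts of depth and chromatin in it cannot be told apart.

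Most N2-only pairs stayed below the N1 list when projected there at their relative strength at N2. Each pair's enrichment at N2 was multiplied by its expected count at N1, with the N1 bias factors where a list gave them and the N2 factors otherwise, and the product was set against the contact count that entered the N1 list. Of the 4590 cis pairs, 1206 reached it, a percentage of 26.3 (25.0% to 27.6%). Among the 260 pairs whose N1 factors were both known, 23 did, or 8.85% (5.69% to 13.0%), so the overall share rests mostly on pairs taken at their N2 factors. The share fell with distance, from 774 of 1803 pairs at 2 to 3 kb (42.9%) over 167 of 583 at 4 to 5 kb (28.6%) and 158 of 760 at 6 to 10 kb (20.8%) to 102 of 1251 at 11 to 100 kb (8.15%) and 5 of 193 beyond 100 kb (2.59%). The long-range pairs that set the N2-only set apart thus mostly stayed below the N1 list in projection. The 260 pairs with known N1 factors had a median of 24 contacts at N2 and a median entry count of 13 at N1. For all 4590 pairs these medians were 37 and 24. The part of distance in the lower share of the 260 pairs was not tested. The projection depended on the factors: with N2 factors divided by the median factor ratio it came to 560 pairs, an alternative added after seeing the data, and with the lower 95% limit of the N2 count to 338. Applied to the 452 pairs that both lists do hold, it returned 329 (72.8%) with N2 factors and 219 (48.5%) with N1 factors, so a pair that misses the N1 list in projection could still be listed there.

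**Figure D2:**
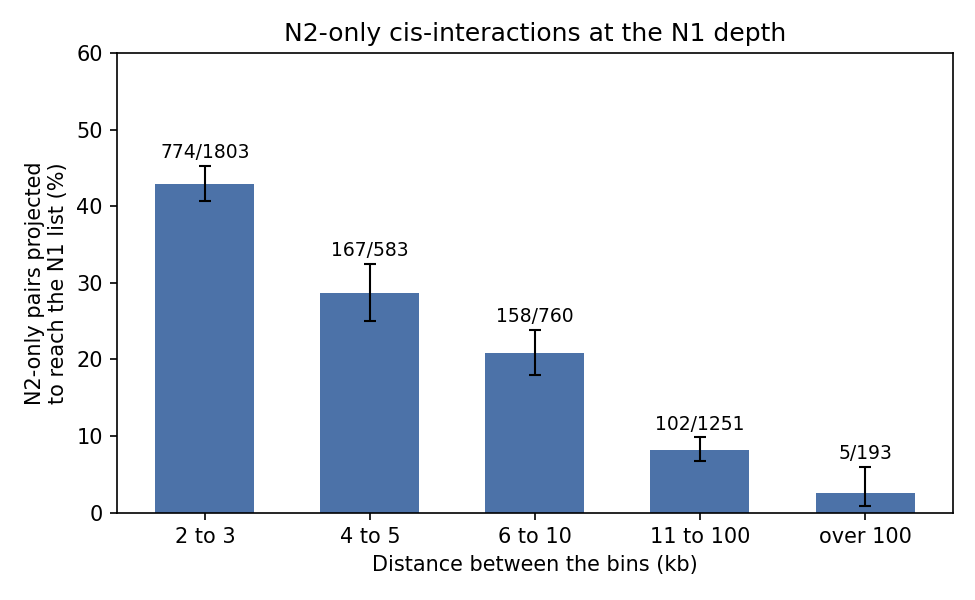
Share of the N2-only cis-interactions (percent, vertical axis) whose N2 enrichment would give enough contacts at N1 to enter the N1 list, by distance between the bins (kb, horizontal axis), with exact binomial 95% intervals and the number of pairs above each bar. The share falls from 42.9% at 2 to 3 kb to 2.59% beyond 100 kb.

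The strongest N2-only contacts lay 2 to 4 kb apart and were well above what would have sufficed at N1. On chromosome 8, the bins at 180001 and 182001 shared 226 contacts at N2, 4.74 times the expected count (lower limit 4.14), and were projected to 125 contacts at N1, where 60 would have been listed. They had 132 contacts at C0. On chromosome 9, 875001 and 877001 shared 202 contacts at N2 (6.16 times, lower limit 5.34) and 104 at C0. The bins at 320001 and 322001 of chromosome 15 shared 192 contacts (4.32 times) and those at 1047001 and 1049001 of chromosome 1 shared 182 (3.85 times), and neither pair was listed at C0. In these 4 pairs at least 1 bin had no known factor at N1, so whether they were candidates for the N1 list is not known.

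For few N2-only pairs could the N2 enrichment be set above a bound on that at N1. Both bins had a factor in the N1 lists for 260 of the 4590 cis pairs, and for these the highest count an unlisted pair can have at N1 gives an upper bound on its N1 enrichment. The N2 enrichment lay above this bound for 30 pairs and its lower 95% limit for 8, which is 3.08% of the 260. With N2 factors in place of unknown N1 factors, 387 of all 4590 pairs passed, and with a 99% limit 5 of the 260, both alternatives added after seeing the data. The pairs had been chosen as listed at N2 and unlisted at N1, which are the values that the bound uses. The limits were also not adjusted for the number of pairs, so these counts are given as a description only. Among the largest gaps was that of 893001 and 897001 on chromosome 7. This pair had 191 contacts at N2, 5.31 times the expected count (lower limit 4.59), against at most 31 contacts and 3.17 times at N1. It had 83 contacts at C0, 2.64 times the expected count. On chromosome 4, 1430001 and 1441001 shared 79 contacts at N2 (17.3 times, lower limit 13.7) against at most 11 contacts and 9.99 times at N1, and had 43 contacts at C0 (6.80 times). On chromosome 8, 956001 and 967001 shared 67 contacts at N2 (14.0 times, lower limit 10.8) with a bound of 9.56 times at N1, and 44 at C0 (5.76 times). The other pairs with the largest gaps were 1572001 and 1577001 on chromosome 2, with 101 contacts and 6.21 times against at most 3.52 times, and 482001 and 487001 on chromosome 6, with 63 contacts and 6.98 times against at most 4.45 times. These 5 pairs are 4 to 11 kb apart, and 4 of them were already listed at C0 at a lower enrichment than at N2. They had been picked for a high N2 enrichment, and the C0 libraries held more valid read pairs than those of N2.

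The N1-only cis pairs fell into 3 classes by what the N2 lists say of their bins. For 348 of the 496, at least 1 bin was in no N2 list, so its N2 factor is unknown. For 110, or 22.2% (18.6% to 26.1%), a bin was listed at N2 as one without a usable factor, and no cis pair of the N2 list joins a bin that has no usable factor at N2. These 110 pairs included the pair with the highest count of the N1 list, 306001 and 308001 on chromosome 3 with 76 contacts, and also 73001 and 75001 on chromosome 9 with 69, 578001 and 580001 on chromosome 10 with 66 and 455001 and 457001 on chromosome 21 with 65. These are 4 of the 5 N1-only pairs with the most contacts, so their absence from the N2 list says nothing of their contacts there. The class had a median of 36 contacts and a median product of bias factors of 1.09, against 28 contacts and 0.631 for pairs with a bin in no N2 list. At C0, 16.4% of the former and 16.7% of the latter pairs were listed.

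The remaining 38 N1-only pairs had both factors known at N2, so that their N1 enrichment can be set beside the highest value an unlisted pair could have at N2. All 38 lay above that bound and 17, or 44.7%, did so with their lower 95% limit. These counts follow in large part from how the pairs were chosen, since a pair of average bins needed a higher enrichment to enter the N1 list than the N2 list, and they are given as a description only. On chromosome 23, 238001 and 247001 shared 20 contacts at N1, 10.5 times the expected count (lower limit 6.41), against at most 24 contacts and 3.44 times at N2. This pair had 45 contacts at C0, 2.98 times the expected count. On chromosome 1, 1580001 and 1591001 shared 22 contacts at N1 (10.8 times, lower limit 6.79) with a bound of 4.69 times at N2, and were not listed at C0. On chromosome 20, 388001 and 392001 shared 23 contacts (7.19 times, lower limit 4.56) with a bound of 3.02 times. Farther apart, 384001 and 481001 on chromosome 23 shared 6 contacts across 97 kb at N1, 38.4 times the expected count (lower limit 14.1), against at most 9.56 times at N2. The bounds use N2 factors that for these bins differ from the N1 factors, as in 388001 of chromosome 20 with 0.777 at N1 and 1.45 at N2. With N1 factors in place of unknown N2 factors, 138 of all 496 pairs passed, and with a 99% limit 10 of the 38.

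The 452 cis pairs listed at both time points differed more between N1 and N2 in contact count than in enrichment. Their contact count was higher at N2 in 438 of 452, with a median of 31 at N1 (range 5 to 68) and 61.5 at N2 (5 to 354), and a median ratio of 1.88. This ratio came with a median ratio of 1.38 in the expected count of an average pair and of 1.56 in the product of the bias factors. The median enrichment was 4.32 at N1 and 3.94 at N2, and the median ratio of N2 over N1 was 0.891 (quartiles 0.728 and 1.07, range 0.415 to 2.29), -0.17 on the log2 scale. Per cis valid read pair of the libraries, without bias factors, the direction reversed, with a median log2 ratio of 0.21. An enrichment at least 1.5-fold higher at N2 was found for 24 pairs, which is 5.31% of the 452, and one at least 1.5-fold higher at N1 for 64, which is 14.2%. The 95% interval of the ratio lay above 1 in 27 pairs, which is 5.97%, and below 1 in 31, which is 6.86%. These intervals were taken pair by pair, with no adjustment for the number of pairs. A pair listed at both also had to pass the higher ratio needed at N1. For average bins 2 kb apart this was 3.19 times the expected count, against 2.73 times at N2. The part of this selection in the lower enrichment at N2 was not tested.

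**Figure D3:**
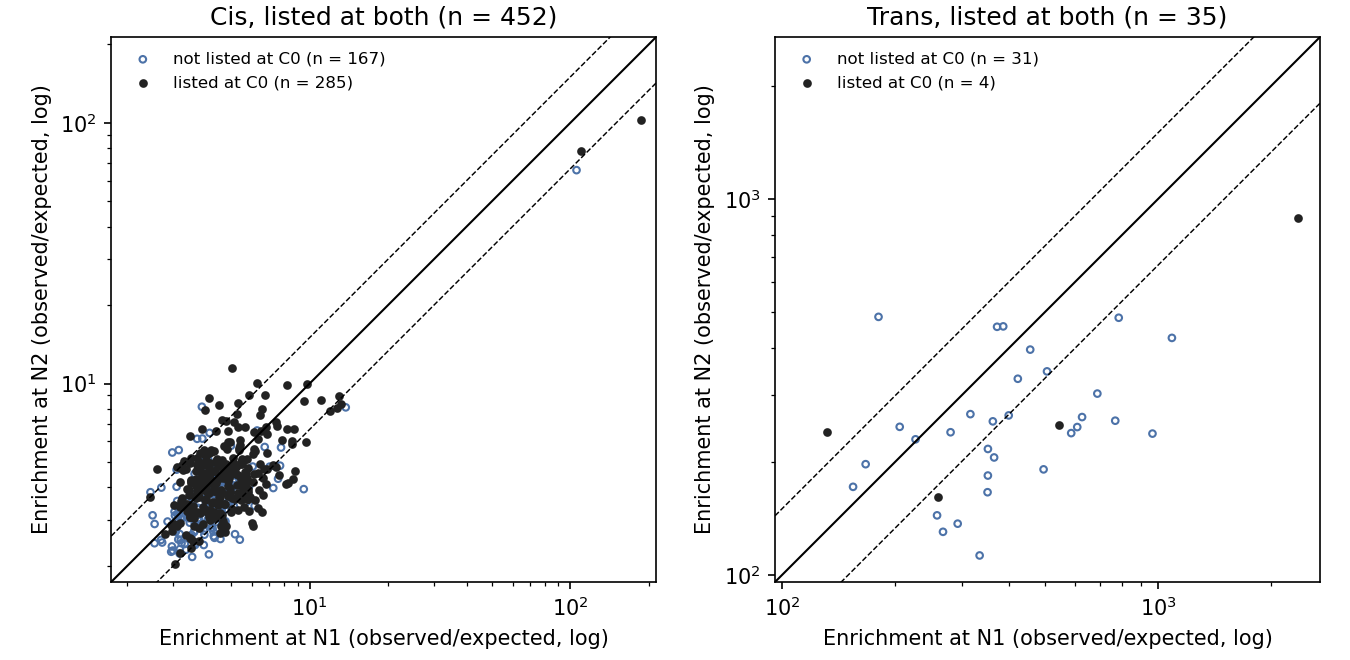
Enrichment (contact count over expected count) at N1 (horizontal, log axis) and N2 (vertical, log axis) of each bin pair listed at both time points, in cis (left) and trans (right); filled points were also listed at C0, the solid line marks equal values and the dashed lines a 1.5-fold difference. Of the cis pairs 64 lie beyond the lower dashed line and 24 beyond the upper one, and of the trans pairs 21 and 2.

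Among the pairs listed at both, the largest increases joined neighbours on chromosomes 11, 6, 4 and 3. On chromosome 11, 383001 and 388001 had 19 contacts at N1 and 91 at N2, or 5.02 and 11.5 times the expected count, a ratio of 2.29 (1.39 to 3.98). At C0 the pair had 69 contacts, 4.85 times the expected count. On chromosome 6, the ratio was 2.14 (1.37 to 3.47) for 480001 and 482001, with 25 and 97 contacts, and 1.99 (1.38 to 2.95) for 1122001 and 1124001, with 35 and 173. On chromosome 4, 623001 and 625001 rose from 29 contacts to 176, a ratio of enrichments of 2.11 (1.42 to 3.24), and were not listed at C0. The bins at 480001 and 482001 lie beside the N2-only pair at 482001 and 487001 of the same chromosome, so 1 bin takes part in both.

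The largest decreases were smaller in contact count. On chromosome 6, 778001 and 782001 had 20 contacts at N1 and 29 at N2, or 9.49 and 3.94 times the expected count, a ratio of 0.415 (0.227 to 0.773). On chromosome 2, the ratio was 0.467 (0.276 to 0.805) for 1133001 and 1135001, with 24 and 42 contacts, and 0.472 (0.279 to 0.811) for 1339001 and 1344001, with 25 and 40. The contact count itself was higher at N2 in all 3 pairs, and the lower enrichment came with larger bias factors there, as for 778001 of chromosome 6 with 0.548 at N1 and 0.982 at N2.

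Of the pairs listed at both, those with the highest sum of contacts over N1 and N2, which the N2 counts dominate, joined bins 2 kb apart. The bins at 622001 and 624001 of chromosome 22 had 59 contacts at N1 and 354 at N2, yet the enrichment of 11.0 at N1 and 8.63 at N2 gave a ratio of 0.783 (0.593 to 1.05). Their factors rose from 0.733 and 0.707 at N1 to 1.80 and 1.59 at N2. On chromosome 28, 383001 and 385001 had 38 and 273 contacts, a ratio of 1.57 (1.12 to 2.27), on chromosome 17, 263001 and 265001 had 56 and 237, a ratio of 1.77 (1.31 to 2.41), and on chromosome 7, 282001 and 284001 had 48 and 241, a ratio of 1.83 (1.34 to 2.55). The intervals of these 3 ratios lay above 1.

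Only 8 pairs over 10 kb apart were listed at both time points, and all 8 had a ratio of enrichments below 1 with an interval that included 1. They included 3 that joined the opposite ends of a chromosome: 1 and 584001 on chromosome 28, with 11 contacts at N1 and 12 at N2, 3001 and 580001 on chromosome 29, with 7 and 5, and 1 and 833001 on chromosome 21, with 5 and 8. At N1 they were enriched 109, 106 and 186 times, and 78.2, 65.8 and 103 times at N2. Of these, the pairs on chromosomes 28 and 21 were also listed at C0, with 24 and 19 contacts. Closer in, 954001 and 971001 on chromosome 9 had 14 contacts at N1 and 70 at N2 (ratio 0.905, 0.505 to 1.74) and 305001 and 316001 on chromosome 8 had 15 and 88 (ratio 0.914, 0.525 to 1.70). To be listed, a pair of average bins 20 kb apart needed 9.13 times the expected count at N1 and 6.32 times at N2.

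The correction applied to the same bins differed between N1 and N2. The bias factor, by which the authors scaled the expected contacts of a bin, was known at both time points for 1112 bins. Its median was 0.844 at N1 and 1.03 at N2, it was higher at N2 in 912 bins, and the median ratio of N2 over N1 was 1.24. Across these bins, which are not independent replicates and share their libraries, Pearson's correlation of the log2 factors was 0.705. A further 103 bins had a factor at N1 and none usable at N2, while 1 bin had the reverse. These 103 had a median factor of 1.46 at N1, with 98.1% above 1, against 32.2% of the bins with a factor in both groups. Listed bins without a usable factor numbered 10 of 1816 at N1 and 759 of 5979 at N2. The product of both factors of a cis pair had a median of 0.741 in the N1-only set, 1.34 in the N2-only set, and, for pairs listed at both, 0.729 by the N1 factors and 1.13 by those of N2. Its part in which pairs were listed was not tested.

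**Figure D4:**
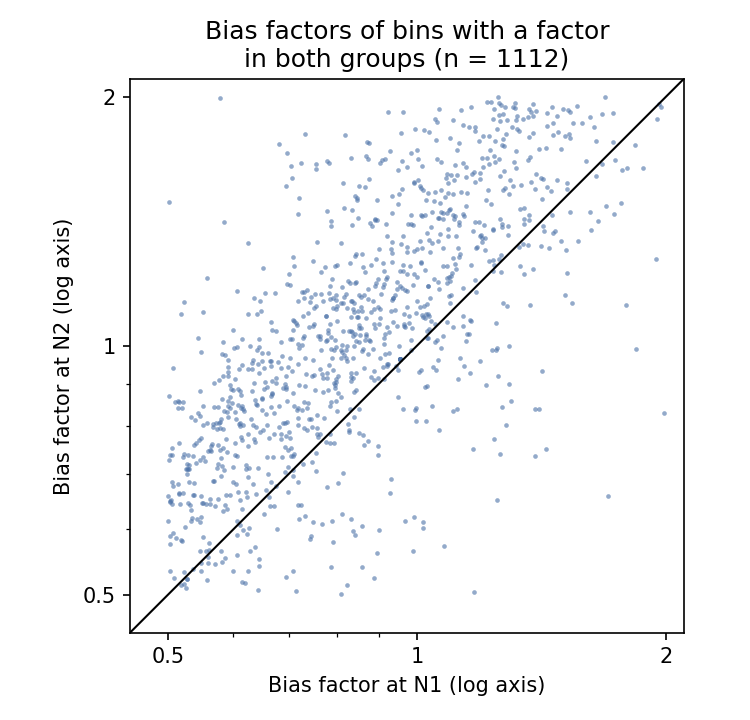
Bias factor at N1 (horizontal, log axis) and at N2 (vertical, log axis) of each of the 1112 bins that had a usable factor in both groups, with the line of equal values. Most points, 912 of 1112, lie above the line.

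Cis pairs that both time points listed were more often found in the list of nitrogen-replete cells than those of a single time point, whereas few trans pairs of any set were. Of the cis pairs listed at both, 285 of 452 were listed at C0, or 63.1% (58.4% to 67.5%), against 1303 of 4590 N2-only pairs, or 28.4% (27.1% to 29.7%), and 88 of 496 N1-only pairs, or 17.7% (14.5% to 21.4%). In trans these were 4 of 35 pairs listed at both, or 11.4% (3.20% to 26.7%), 49 of 1483 N2-only pairs, or 3.30% (2.45% to 4.34%), and 1 of 63 N1-only pairs, or 1.59% (0.0402% to 8.53%). The 1303 pairs listed at C0 and N2 but not at N1 reached the N1 list in projection in 596 cases, or 45.7% (43.0% to 48.5%), against 610 of 3287 pairs that were not listed at C0, or 18.6% (17.2% to 19.9%). Within the N2-only set the share listed at C0 was 38.6% at 2 to 3 kb, 29.2% at 6 to 10 kb and 11.0% at 11 to 100 kb. Most of the long-range N2-only pairs were therefore in no C0 list either. Pairs listed at both and at C0 had a median ratio of enrichments of 0.914, and the 167 not listed at C0 one of 0.829. Contacts that were listed at N1 and N2 but not at C0 numbered 167 in cis and 31 in trans.

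Contacts beyond 100 kb differed in position between the sets. At N1 only, 15 of 18 such pairs ran from one end of a chromosome to the other, with each bin at most 20 kb from its end, or 83.3% (58.6% to 96.4%), and at both time points all 3 did. At N2 only, 51 of 193 did, or 26.4% (20.4% to 33.2%), and of the other 142 pairs, 128 had no bin at an end. These 142 had a median of 8 contacts, 22.1 times the expected count, and 3 of them were listed at C0, whereas 28 of the 51 end-to-end pairs were. The 51 had a median enrichment of 52.5. At 100 kb a pair of average bins entered the N1 list from 26.1 times the expected count and the N2 list from 16.0 times. The part of these entry levels in the difference between the sets was not tested. Among the N2-only pairs beyond 100 kb, 838001 and 981001 on chromosome 15 had the most contacts, with 22 across 143 kb, 25.5 times the expected count (16.0 to 38.6). Next came 513001 and 614001 on chromosome 20, with 19 contacts across 101 kb at 13.4 times (8.09 to 21.0), and 99001 and 243001 on chromosome 25, with 17 across 144 kb at 38.7 times (22.5 to 61.9). None of these 3 was listed at C0. The N1-only pair beyond 100 kb with the most contacts, 875001 and 1140001 on chromosome 3, had 9 at 57.7 times the expected count (26.4 to 110), and the 15 end-to-end pairs had 4 to 7.

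Chromosome ends also carried short contacts in all sets. Both bins lay within 20 kb of a chromosome end in 57 of 496 N1-only pairs, or 11.5% (8.82% to 14.6%), in 178 of 4590 N2-only pairs, or 3.88% (3.34% to 4.48%), and in 26 of 452 pairs listed at both, or 5.75% (3.79% to 8.32%). Of these, 42, 127 and 23 lay within the same end, at a median distance of 2, 3 and 2 kb. The 42 N1-only pairs came from 28 of the 60 chromosome ends, with at most 3 from the same end, and the 127 N2-only pairs from 41 ends with at most 8. The right end of a chromosome was set at the last bin that any list holds. With ends so set, the 60 ends of 20 kb lie within 30972 kb of chromosome. The share of chromosome at an end is close to the share of N2-only pairs with both bins there. That share of pairs takes in 51 pairs between opposite ends besides the 127 within the same end. The length share is therefore no measure for the short pairs within the same end.

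The chromosomes with the most cis pairs per Mb differed between the sets. Per Mb, the 30 chromosomes held 101 to 191 N2-only pairs (median 149), 6.88 to 30.8 N1-only pairs (median 14.8) and 8.04 to 27.3 pairs listed at both (median 14.1). Chromosomes 29, 11 and 28 held the most N2-only pairs per Mb, with 191, 189 and 186, and chromosomes 10, 12 and 16 the fewest, with 101, 109 and 111. Chromosomes 26, 22 and 7 led the N1-only set with 30.8, 28.3 and 26.3 per Mb, from 20, 20 and 35 pairs, while chromosome 29 had the fewest, with 4 pairs. Chromosome 29 was therefore first in the N2-only set and last in the N1-only set. Chromosome 6 led the pairs listed at both, with 38 pairs. The small counts at N1 only leave wide counting error, and no test of evenness was run.

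**Figure D5:**
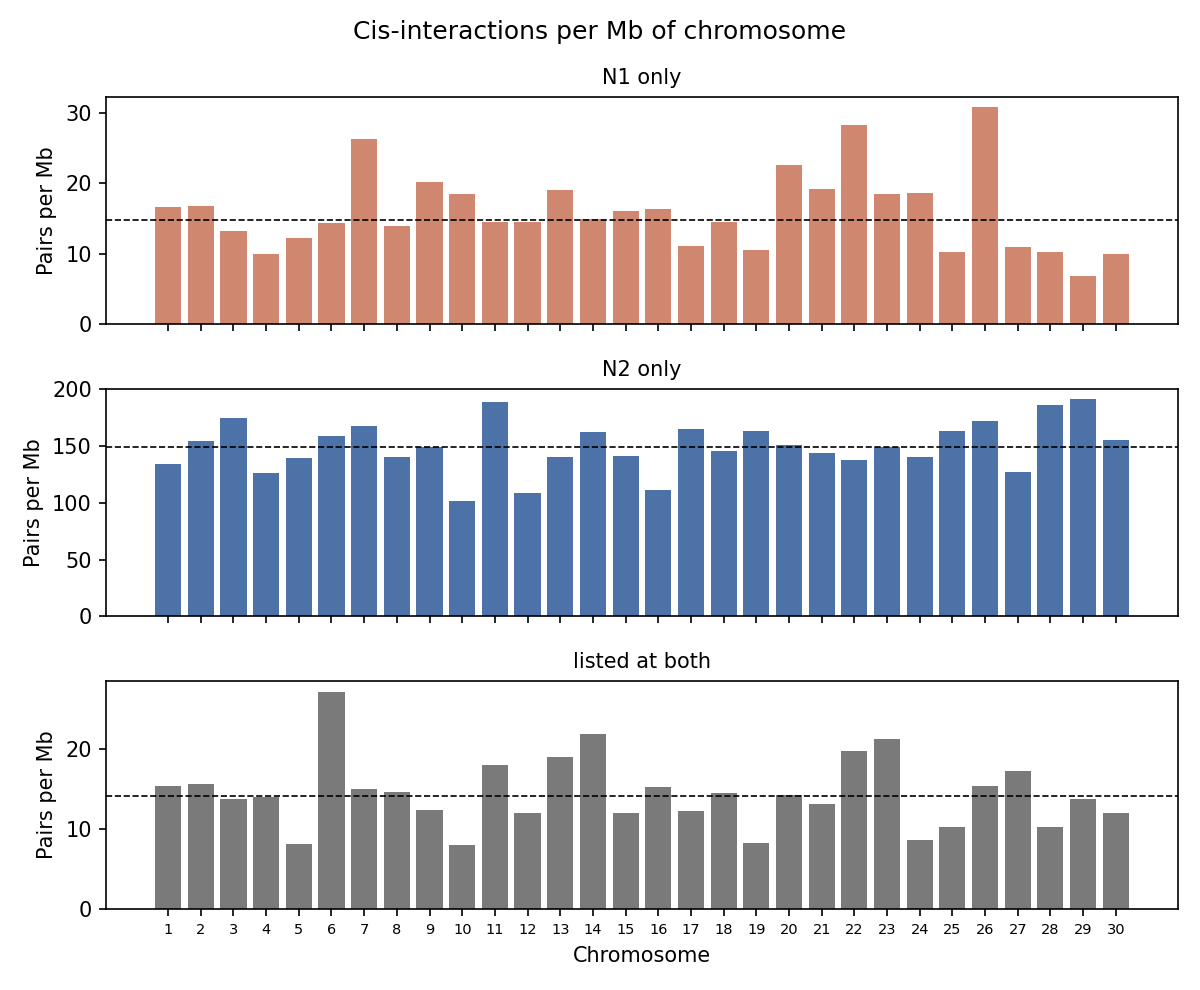
Cis-interactions per Mb (vertical axes, each with its own scale) on each of the 30 chromosomes (horizontal axis) in the N1-only set (top), the N2-only set (middle) and the pairs listed at both (bottom), with the median over chromosomes as a dashed line. The N2-only values run from 101 to 191 per Mb and the N1-only values from 6.88 to 30.8.

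At N2 a small number of bins took part in many of the N2-only cis pairs. In that set 76 bins on 28 chromosomes had 10 or more partners, and 994 of the 4590 pairs, 21.7%, had such a bin at 1 end or at both. At N1 only, no bin had more than 4 partners, at 560001 of chromosome 9, and 93.4% of the 915 bins had 1. The numbers of partners were not adjusted for the size of the sets, 496 pairs at N1 only and 4590 at N2 only. The pairs of the 76 bins were longer, with a median of 17 kb against 4 kb for the other N2-only pairs, and 30.1% of them were listed at C0 against 27.9%. The median N2 factor of the 76 bins was 1.11 and that of the other bins of the set 1.12. Of the 76 bins, 43 were in an N1 list, all with a usable factor.

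The bin at 343001 of chromosome 21 had the most partners, 26 at N2, with 5 to 97 contacts at distances of 2 to 271 kb and a median enrichment of 10.5. It had 24 partners at C0, 15 of them the same as at N2, and was in no N1 list. The bin at 550001 of chromosome 22 had 25 partners at N2 (median distance 23 kb, median enrichment 11.1) against 6 at C0, and 243001 of chromosome 25 had 24 against 11. Neither was in an N1 list. The bin at 394001 of chromosome 29 had 22 partners at N2, 17 at C0 and none at N1. The bin at 838001 of chromosome 15 had 23 N2-only partners, at 2 to 559 kb with 7 to 103 contacts, and was listed at N1 with 3 partners. Its factor was 0.578 at N1 and 1.99 at N2, close to the highest factor in the lists. The bins named on chromosomes 21, 22, 25 and 29 had low N2 factors, of 0.564, 0.701, 0.771 and 0.555. Of all 76 bins with 10 or more partners, 33 had an N2 factor below 1. A lower factor gives a lower expected count, and its part in the enrichments and numbers of partners was not tested.

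Trans-interactions listed at N2 only rested on few contacts and mostly on bins without a usable factor. Of the 1483 pairs, 1077 had 4 contacts, or 72.6% (70.3% to 74.9%), and 9 had 3. In 1260 of them neither bin had a usable factor and the expected count was that of average bins, while 223 joined bins with factors. In the N1-only set, 60 of 63 pairs joined bins with factors. At N2 strength, 75 of the 1483 pairs reached the N1 list in projection, a percentage of 5.06 (4.00% to 6.30%), and 70 of these 75 had no usable factor. The count came to 23 when scaled by the library totals and to 3 at the lower 95% limit of the N2 count. Among the 223 pairs with usable factors it was 5. Both N1 factors were known for 45 of the 1483 pairs, and 15 of these 45 reached the N1 list in projection, or 33.3%. Most of the 15 had no usable N2 factor, so average bins at N2 were set against N1 factors. For 4001 of chromosome 20 with 1 of chromosome 22, with N1 factors of 1.88 and 1.58, 8 contacts at N2 became 11.1 in projection. The 33.3% therefore mixes 2 corrections. The overall share thus rests mostly on the 1437 pairs with a bin in no N1 list. Leaving out pairs without usable factors, the N2-only pairs outnumbered the N1-only pairs by 223 to 60.

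The N2-only trans pairs gathered on chromosomes 3, 9 and 15. The chromosome pairs 3 and 15, 9 and 15, and 3 and 9 held 149, 126 and 84 of them, together 359 of 1483, or 24.2% (22.1% to 26.5%), against 3 of 63 N1-only pairs (4.76%, 0.993% to 13.3%) and none of the 35 pairs listed at both. Of the 359, 317 had no usable factor and 35 were listed at C0. They had a median of 5 contacts (range 4 to 18), against 4 for the other 1124 pairs, of which 943 had no usable factor and 14 were listed at C0. Their bins numbered 61 on chromosome 3, 60 on chromosome 9 and 66 on chromosome 15, of which 6, 6 and 11 were in an N1 list. The bin at 1037001 of chromosome 3 had 31 of these partners, 489001 of chromosome 9 had 27 and 594001 of chromosome 15 had 24, and none of the 3 was in the N1 trans list. The highest count there was 18 contacts at N2, between 1037001 on chromosome 3 and 588001 on chromosome 15, with 13 at C0. The 63 N1-only pairs were spread over 59 chromosome pairs with at most 2 in each.

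The N2-only trans pair with the most contacts joined bins with usable factors. The bins at 487001 of chromosome 5 and 1083001 of chromosome 7 shared 37 contacts at N2, 711 times the expected count (lower limit 500.4), and 10 at C0, 197 times. Its projection to N1 was 17.3 contacts where 4 would have been listed, but neither bin was in an N1 list. At N1 only, 61001 of chromosome 10 and 65001 of chromosome 27 shared the most, with 9 contacts at 572 times the expected count (lower limit 262), and neither bin was in an N2 list. For 4 N1-only trans pairs both factors were known at N2, and 1 had a lower limit above the bound there: 304001 of chromosome 1 and 161001 of chromosome 22, with 6 contacts at 1257 times the expected count (lower limit 462) against at most 215 times at N2.

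The 35 trans pairs listed at both had more contacts at N2 but a lower enrichment. Their median was 5 contacts at N1 and 6 at N2, and the count was higher at N2 in 22 pairs and lower in 6. The median enrichment was 366 at N1 and 247 at N2, with a median ratio of 0.613 (range 0.246 to 2.69). An enrichment at least 1.5-fold higher at N1 was found for 21 pairs, which is 60% of the 35, and one at least 1.5-fold higher at N2 for 2, which is 5.71%. The interval of the ratio lay below 1 for 2 pairs, which is 5.71%, and above 1 for none, or 0%. The 2 were 1445001 of chromosome 1 with 4001 of chromosome 7, at 18 contacts at N1 and 25 at N2 (ratio 0.392, 0.206 to 0.763), and 103001 of chromosome 24 with 333001 of chromosome 30, at 15 and 28 (ratio 0.379, 0.196 to 0.763). The former was not listed at C0 and the latter had 8 contacts there. The highest ratio, for 561001 of chromosome 22 with 359001 of chromosome 30, rested on 4 contacts at N1 and 9 at N2 and had an interval from 0.751 to 12.0. A trans pair entered the N1 list only at about 293 times the expected count of average bins against 137 times at N2, so that a pair listed at both had to be strongly enriched at N1.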

How the data were processed

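Per the labels and the methods, Hi-C reads of 2 replicates per group were filtered with Trimmomatic, mapped with the ICE package, pooled and called with Fit-Hi-C. The submitters' processing notes also name HiC-Pro and edgeR. The lists hold 1-kb bins, whereas the methods speak of larger bins. The deposited contact count of each bin pair is a raw count, which the authors took from both replicates together and did not normalise. The authors' Fit-Hi-C run gave the deposited p-value and q-value, and they kept pairs with a q-value below 0.01 and a contact count above 2. The bias factor of a bin is a deposited score from 0.500 to 2.00, in which average bins have 1 and bins with no usable factor are given as -1. The 4 deposited lists of interactions shared between groups were not used.

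The expected count was computed by inverting the Poisson upper tail, which gives the mean at which the observed count has the deposited p-value, and enrichment as the contact count over it. After division by the factors, expected counts varied by no more than 0.00184% within a distance. Entry counts are the lowest counts with a Poisson tail at or below the highest listed p-value of the group. Distance curves were interpolated between listed distances on log axes, with a deviation of at most 1.91% over 259 distances checked. Ratios of counts have exact binomial intervals. Groups follow the sample titles, and no test between groups was run. Valid read pairs come from the study's sequencing statistics and were used for depth and as an alternative scaling. The members and lists were chosen with earlier results of these data known. The pairs named are the 5 with the highest contact count of each set, the highest and lowest ratios and the largest gaps to a bound, with leading bins and chromosomes; not all are described, and pairs beyond 100 kb, the rule for N2-only gaps and the bins of chromosomes 3, 9 and 15 were added after seeing values. Computations used Python 3.11.15, numpy 2.4.6, pandas 2.3.3 and scipy 1.17.1, and were tested on simulated data. Alternatives were stricter q-values and counts, matches within 1 or 5 bins, merged neighbours, longer distances, usable factors only, left-out chromosomes, other scalings and limits, and other end widths.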

Additional observations from a re-analysis of the deposited data

How the results depend on the processing

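With a q-value below 0.001, 318 cis pairs were listed at N1 only and 295 at both, 411 trans pairs at N2 only, 89.0% of N1-only and 56.9% of N2-only cis pairs lay within 5 kb, and 26.6% of N2-only pairs over 10 kb. With at least 5 contacts, the trans sets held 20 pairs at N1 only, 409 at N2 only and 15 at both. With usable factors only, 223 N2-only trans pairs were left. From 4 kb on, the cis sets held 120, 2787 and 49 pairs, with 39.2% of N1-only and 20.9% of N2-only pairs within 5 kb and 29.2% and 51.8% over 10 kb, and from 10 kb on 38, 1565 and 9. Matching within 5 bins left 202 N1-only pairs and raised the N1 pairs with a match to 746, the N2 list being counted on its own side. Matching within 1 bin put 50.1% of N2-only pairs within 5 kb, and 29.4% of N1-only, 37.4% of N2-only and 69.0% of shared pairs in the C0 list.

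The median log2 ratio of cis pairs listed at both was -0.17, and 0.21 per cis valid read pair, a reversal that came with the divisor. The former divides contacts by expected counts, with median ratios of 1.38 for average pairs and 1.56 for the factor product. The latter divides them by cis valid read pairs alone, with a ratio of 1.63. The median log2 ratio of enrichments was -0.27 for cis pairs from 4 kb on, and -1.35 for trans pairs with at least 10 contacts. The projection to N1 gave 338 cis and 3 trans pairs at the lower limit of the count, 432 cis pairs from 4 kb on, 560 cis pairs with rescaled factors, and 23 trans pairs by library totals. N1-only pairs above the N2 bound numbered 138 with N1 factors where unknown and 10 at a 99% limit, and the corresponding N2-only pairs 387 and 5. With ends of 10 kb and 50 kb, 7.86% and 15.7% of N1-only and 1.66% and 7.89% of N2-only pairs had both bins at an end, and 8.85% of shared pairs at 50 kb. Leaving out each chromosome in turn kept the share within 5 kb at 84.6% to 86.1% for N1 only and 51.5% to 52.4% for N2 only, and the share over 10 kb at 6.42% to 7.40% and 31.0% to 32.0%. Of 309 values under alternatives, 258 stayed within counting error or 1.5-fold of the reported value, 50 moved and 1 reversed. Most of the 309 are shares with 1 chromosome left out, all of which stayed, so the moves fall among the fewer other alternatives. No paired analysis was possible because the lists pool the replicates of each group, and leaving out a replicate could not be done for the same reason. Depth limits what an unlisted pair says: at N1 a trans pair of average bins below 4 contacts could not be listed.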

Other observations

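The same value of the bias factor recurred in many bins of both groups. At N1, 47 listed bins carried the factor 0.955, where the next most common value occurred in 2 bins, and at N2, 62 bins carried 0.963, where the next most common occurred in 3. The 18 of these bins that were listed in both groups carried the repeated value in both. Such bins took part in 41 cis and 9 trans pairs at N1 and in 173 cis and 19 trans pairs at N2, among them the pairs at 480001 and 482001 and at 482001 and 487001 of chromosome 6. Without them, an alternative added after seeing the data, 468 cis pairs were listed at N1 only, 4430 at N2 only and 439 at both, and the median log2 ratio of enrichments of the pairs listed at both was -0.18. What the repeated value stands for is not given in the sources used here.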
